A study of Mus musculus with 18 samples.

Results

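Integrins are cell surface receptors made of an alpha and a beta chain, and the pair decides which matrix protein the receptor binds. The 10 chains described here are those through which cells of a nerve bind the matrix around them: Itga1, Itga2, Itga3, Itga5, Itga6, Itga7, Itgav, Itgb1, Itgb4 and Itgb8. They were taken by name, and every array probe whose accession belongs to 1 of these genes was used. All 10 were measured, on 13 probes, among 14546 genes with a symbol that passed the filter on dim probes. All 13 probes were well above background on each of the 18 arrays, so the filter removed no member.

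As background, Itgb1 pairs with Itga1, Itga2, Itga3, Itga5, Itga6, Itga7 and Itgav, Itgb4 pairs with Itga6 alone, and Itgb8 pairs with Itgav. In peripheral nerve Schwann cells meet laminin in their basal lamina through Itga6 with Itgb1 while they sort axons, and later also through Itga6 with Itgb4 at the outer face of the myelin sheath. Integrins made of Itgav and Itgb8 are known above all for freeing active TGF-beta from its latent store.

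The cultures were explants of dorsal root ganglia from E13.5 C57BL/6J mouse embryos, labelled as control cultures. The ganglia, which hold sensory neurons and glia as well as connective tissue cells, were grown on Matrigel, a gel rich in laminin, for 12 days in growth medium at all 3 time points. RNA was taken before myelination medium was given (day 0), after 10 days in it (early myelination) and after 22 days in it, when mature myelin was abundant, and each day had 3 batches of pooled embryos with 2 technical arrays each. No culture kept in growth medium was analysed here, so the medium and the time in culture cannot be told apart, and laminin from the gel was present in every group. In these bulk samples fewer cells of a type and less RNA per cell cannot be told apart either.

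A level is the log2 intensity of a probe minus the 75th percentile of its array, so levels of different probes are not compared. A difference is a log2 difference ± the standard error of a limma fit to 9 batch values (3 per day), with p adjusted by Benjamini-Hochberg over 22858 features and a threshold of 0.05. The authors' value table filed 12 of its 18 columns under another sample of the same day than the array files did. The fit was therefore run with either batching, by array file (the adjusted p) and by value table (given as the value-table adjusted p). The words rose and fell are kept for genes past the threshold in both runs. The p-values measure the spread between batch values, which is the spread between pools of embryos only where the batching is right. Batches within a day differed for 0% of features by array file and for 8.69% by value table (limma's F test). By array file the technical arrays of a batch were no more alike than other arrays of the day. Their correlation within batches, pooled over features by limma, was -0.019. That correlation was not computed by value table, and which batching is right was not tested further. The comparisons share the arrays of each day, and the fit did not pair same-numbered batches across days.

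The ganglion cells the label names were present, since all 10 Schwann cell and myelin markers and all 12 sensory neuron markers passed the filter. The summed level of the 12 macrophage markers ranged from 9.7 to 34.7 times the 75th percentile over the arrays of day 0, from 34.7 to 103 times at day 10 and from 75.3 to 415 times at day 22. All 17 cell cycle genes tested fell by day 22 against day 0, and 11 of 12 macrophage markers rose. Of 9 fibroblast markers 3 rose and 0 fell (median difference 1.23), and of 4 melanocyte markers 2 rose and 0 fell. Of the 10 Schwann cell and myelin markers 2 rose and 0 fell, and of the 12 sensory neuron markers 0 rose and 2 fell. Over all features 18.6% fell and 12.6% rose in that comparison. Among endothelial markers Tie1 and Sox17, and among epithelial markers Epcam and Krt8, were well above background on 0 of 18 arrays. Other markers of both lists were well above background on all 18 arrays, namely Pecam1, Cdh5, Kdr, Emcn and Vwf of endothelium and Cdh1, Krt5, Krt14 and Trp63 of epithelium. Of the 3 slides, the first and the second carried arrays of every day.

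The alpha-v chain and the shared beta-1 chain fell by day 10. The beta-8 chain did not pass the test with both sets of batches (value-table adjusted p = 0.115), but its difference from each of them rose, as 73.1% of features changed relative to Itgav and 38.0% relative to Itgb1. The promoters of these 3 genes are shown because their unequal changes are described first. Each runs from 250 bases before to 50 bases after the transcription start on the strand of the gene, taken from RefSeq with build GRCm38.p6. Itgav lies at chr2:83724147-83724446 on the plus strand, Itgb1 at chr8:128685404-128685703 on the plus strand and Itgb8 at chr12:119238227-119238526 on the minus strand. Capitals mark the motifs found.
Itgav: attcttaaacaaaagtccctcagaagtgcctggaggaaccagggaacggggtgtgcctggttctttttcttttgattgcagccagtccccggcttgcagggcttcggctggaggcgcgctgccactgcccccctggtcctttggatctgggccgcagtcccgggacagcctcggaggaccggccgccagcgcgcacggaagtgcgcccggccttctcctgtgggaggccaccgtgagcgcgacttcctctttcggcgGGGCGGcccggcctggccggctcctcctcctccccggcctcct
Itgb1: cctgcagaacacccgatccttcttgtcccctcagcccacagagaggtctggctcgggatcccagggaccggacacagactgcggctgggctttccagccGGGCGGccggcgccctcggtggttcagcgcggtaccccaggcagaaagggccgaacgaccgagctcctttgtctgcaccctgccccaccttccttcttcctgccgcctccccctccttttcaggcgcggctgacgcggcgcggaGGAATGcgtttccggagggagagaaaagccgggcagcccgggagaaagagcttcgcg
Itgb8: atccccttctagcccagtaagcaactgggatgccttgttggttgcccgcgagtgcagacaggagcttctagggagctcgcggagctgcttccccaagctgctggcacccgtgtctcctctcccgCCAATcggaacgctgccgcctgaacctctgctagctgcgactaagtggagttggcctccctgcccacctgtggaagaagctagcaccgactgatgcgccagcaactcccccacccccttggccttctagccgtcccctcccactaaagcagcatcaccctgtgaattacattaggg
Motifs were searched on both strands. The letters were GGGCGG for the GC box and CCAAT for the CCAAT box. The TATA box was searched as TATAAA and the AP-1 site as TGANTCA. The TEAD motif was searched as GGAATG and the E-box as CACGTG, and no motif overlapped another in these promoters. Promoters were matched for 7 of the 10 members, with 8 promoters in all, of which 6 held a GC box. The Itgav promoter held 1 GC box, the Itgb1 promoter 1 GC box and 1 TEAD motif, and the Itgb8 promoter 1 CCAAT box. A GC box was found in 35.7%, a CCAAT box in 37.4% and a TEAD motif in 14.7% of 32851 promoters of this length. GC made up 67.3% of the bases in Itgav, 67.3% in Itgb1 and 60.7% in Itgb8, against a median of 52.7% over all promoters. Itga6, Itga7 and Itgb4 are named only.

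At day 10 against day 0, 2 of the 10 chains fell with both sets of batches, Itgav and Itgb1, where 7.72% of all features fell, and 0 rose, where 5.75% of all features rose. By array file alone 5 chains were lower (17.8% of all features) and 1 was higher (11.4%). The median difference of the 10 chains was -0.40, against -0.06 for all features. On 3 chains, Itga2, Itgav and Itgb1, every array of day 10 lay below every array of day 0, which held for 9.18% of features.

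Itgav, the alpha chain of the receptors for vitronectin, fibronectin and latent TGF-beta, fell by day 10. Its lowest, median and highest levels over the 6 arrays were 1.71, 2.09 and 2.37 at day 0, 1.18, 1.31 and 1.53 at day 10, and 1.55, 1.72 and 1.91 at day 22. All arrays of day 10 lay below all arrays of both other days, and days 0 and 22 overlapped. The difference of day 10 against day 0 was -0.74 ± 0.12, or 1.67-fold lower (adjusted p = 0.00382, value-table adjusted p = 0.00375). It passed in all 9 fits that left out a batch, with either set of batches, and was -0.87 within slide 1, -0.61 within slide 2 (adjusted p = 0.0979) and -0.75 with the slide as a block. Day 22 against day 10 gave 0.40 ± 0.12 (adjusted p = 0.0797, value-table adjusted p = 0.0711), and day 22 against day 0 gave -0.34 ± 0.12 (adjusted p = 0.0561, value-table adjusted p = 0.0247).

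A second Itgav probe gave similar differences. It ranged over the arrays from -0.25 to 0.46 at day 0, from -0.95 to -0.55 at day 10 and from -0.50 to -0.27 at day 22, so that no 2 days overlapped. In a fit of 30435 probes the second probe differed by -0.77 ± 0.14 at day 10 against day 0 (adjusted p = 0.00556, value-table adjusted p = 0.00419). It differed by -0.43 ± 0.14 at day 22 against day 0 (adjusted p = 0.038, value-table adjusted p = 0.012), where the brighter probe passed only by value table.

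Itgb1, the common partner of the alpha chains, fell with little spread left after day 0. Its lowest, median and highest levels were 2.96, 3.2 and 3.57 at day 0, 2.70, 2.81 and 2.88 at day 10, and 2.82, 2.90 and 2.93 at day 22. Every array of days 10 and 22 lay below every array of day 0. The SD between batch means was 0.13 at day 0, 0.01 at day 10 and 0.03 at day 22. Itgb1 fell by 0.41 ± 0.08 at day 10 against day 0 (adjusted p = 0.00646, value-table adjusted p = 0.0347) and by 0.33 ± 0.08 at day 22 against day 0 (adjusted p = 0.00937, value-table adjusted p = 0.0367).

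Leaving out 1 batch ended none of these Itgb1 calls when batched by array file. Batched by value table it ended the call in 7 of 9 fits at day 10 against day 0 (highest adjusted p = 0.12) and in 8 of 9 at day 22 against day 0 (highest adjusted p = 0.0985), with differences of -0.49 to -0.32 and of -0.42 to -0.24. The difference was -0.47 within slide 1 and -0.28 within slide 2 at day 10 against day 0, and -0.41 and -0.18 at day 22 against day 0, none of them past the threshold. A second Itgb1 probe ranged from 0.95 to 2.06 at day 0, from 0.98 to 1.43 at day 10 and from 0.93 to 1.35 at day 22, and the days overlapped. It differed by -0.43 ± 0.18 at day 10 against day 0 (adjusted p = 0.11) and by -0.50 ± 0.18 at day 22 against day 0 (adjusted p = 0.0507, value-table adjusted p = 0.044). Neither difference passed with both sets of batches.

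**Figure D1:**
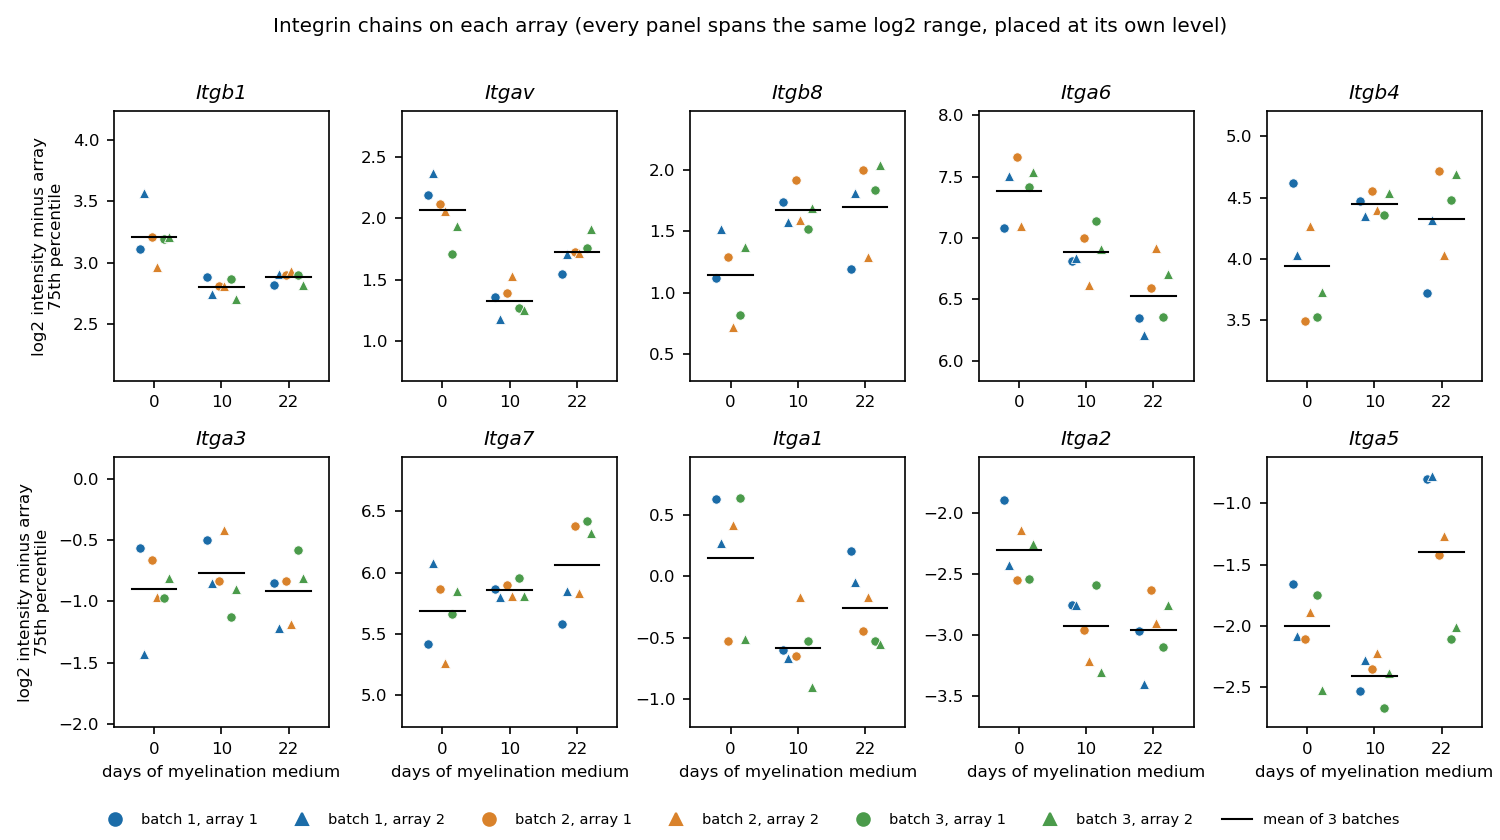
Levels of the 10 integrin chains on each of the 18 arrays by day (log2 intensity less its array's 75th percentile, brightest probe, n = 3 batches of 2 arrays a day). Colours are the batches of the array files, triangles the second technical arrays, and lines the means of 3 batches; all panels span the same range. Itgb1 lies between 2.70 and 2.93 on every array of days 10 and 22, below all arrays of day 0.

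Itgb8, the partner of Itgav in the activation of TGF-beta, was the one chain higher at day 10 when batched by array file. Its lowest, median and highest levels were 0.72, 1.20 and 1.52 at day 0, 1.52, 1.64 and 1.92 at day 10, and 1.19, 1.82 and 2.04 at day 22. Days 0 and 10 met at 1.52, and days 0 and 22 overlapped. The difference was 0.53 ± 0.13 at day 10 against day 0 (adjusted p = 0.017, value-table adjusted p = 0.115) and 0.56 ± 0.13 at day 22 against day 0 (adjusted p = 0.00886, value-table adjusted p = 0.0677). By value table and with the replicate block, the adjusted p was 0.0569 at day 10 and 0.0306 at day 22. The difference of day 22 against day 0 was 0.19 within slide 1 and 0.70 within slide 2.

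Among the laminin receptors Itga6, which pairs with both Itgb1 and Itgb4, fell between day 0 and day 22. Its lowest, median and highest levels were 7.08, 7.47 and 7.66 at day 0, 6.62, 6.88 and 7.14 at day 10, and 6.21, 6.48 and 6.92 at day 22. Every array of day 22 lay below every array of day 0, while day 10 overlapped both. Itga6 fell by 0.86 ± 0.13 at day 22 against day 0, or 1.82-fold (adjusted p = 0.001, value-table adjusted p = 0.00593), and passed in all 9 fits that left out a batch with either set of batches. It was -1.20 within slide 1, -0.76 within slide 2 (adjusted p = 0.107) and -0.88 with the slide as a block. At day 10 against day 0 it was -0.50 ± 0.13 (adjusted p = 0.0208, value-table adjusted p = 0.0781), and at day 22 against day 10 it was -0.36 ± 0.13 (adjusted p = 0.114).

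Itgb4, which with Itga6 forms the laminin receptor of mature myelin, did not pass the threshold in any comparison. Its lowest, median and highest levels were 3.49, 3.88 and 4.62 at day 0, 4.35, 4.43 and 4.55 at day 10, and 3.72, 4.4 and 4.72 at day 22. The arrays of day 10 lay close together, inside the range of both other days. The difference was 0.50 ± 0.19 at day 10 against day 0 (adjusted p = 0.0848, 95% interval 0.06 to 0.93). Without batch 1 of day 0, whose first array read 4.62, it was 0.69 (adjusted p = 0.0255). That was the 1 of 9 fits leaving out a batch of the array files that passed. These 9 fits gave differences of 0.34 to 0.69 (highest adjusted p = 0.235). Batched by value table, such fits gave 0.33 to 0.75, and 0 of 9 passed (highest adjusted p = 0.482).

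The other laminin receptor chains, Itga3 and Itga7, were not shown to change. Itga3 levels ranged over the arrays from -1.43 to -0.56 at day 0, from -1.13 to -0.42 at day 10 and from -1.22 to -0.58 at day 22. All 3 days overlapped, with differences of 0.12 ± 0.13 at day 10 against day 0 and -0.01 ± 0.13 at day 22 against day 0 (95% interval -0.32 to 0.29). Itga7 ranged from 5.26 to 6.08 at day 0, from 5.80 to 5.96 at day 10 and from 5.58 to 6.42 at day 22. Its difference at day 22 against day 0 was 0.37 ± 0.15 (adjusted p = 0.0776), with -0.10 within slide 1 and 0.71 within slide 2.

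Of the collagen receptor chains, Itga2 fell by day 22, while Itga1 passed in no comparison with both sets of batches. Itga2 had lowest, median and highest levels of -2.55, -2.35 and -1.90 at day 0, -3.30, -2.86 and -2.59 at day 10, and -3.40, -2.93 and -2.63 at day 22. No array of days 10 or 22 reached the lowest array of day 0, and arrays of day 22 were all lower than those of day 0 for 13.3% of features. Itga2 fell by 0.66 ± 0.13 at day 22 against day 0 (adjusted p = 0.00456, value-table adjusted p = 0.0316, and 0.0518 with the replicate block as well), a call that ended in 4 of 9 fits leaving out a batch of the value table (adjusted p of 0.0265 to 0.0911). At day 10 against day 0 it was -0.62 ± 0.13 (adjusted p = 0.00994, value-table adjusted p = 0.0634).

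Itga1 had more spread within days. It ranged from -0.53 to 0.64 at day 0, from -0.90 to -0.17 at day 10 and from -0.55 to 0.21 at day 22, and the days overlapped. At day 10 against day 0 it was -0.74 ± 0.19 (adjusted p = 0.019, value-table adjusted p = 0.111, and 0.0366 with the replicate block as well). A second Itga1 probe gave -0.71 ± 0.12 (adjusted p = 0.00425, value-table adjusted p = 0.0721). The brighter probe gave -0.41 ± 0.19 at day 22 against day 0 (adjusted p = 0.107).

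**Figure D2:**
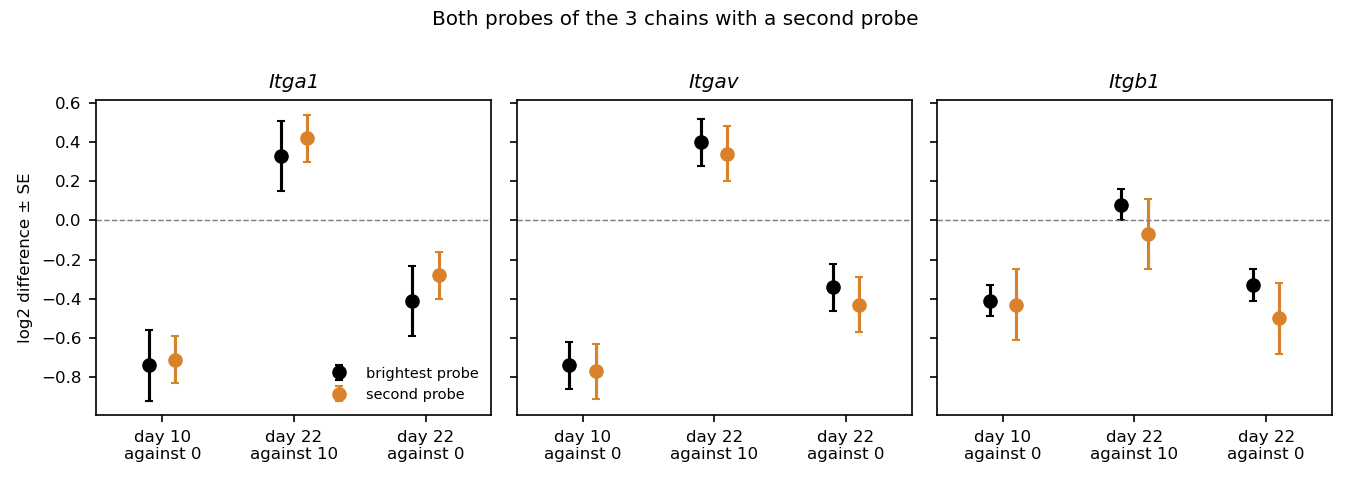
Log2 differences ± SE of both probes of Itga1, Itgav and Itgb1 in the 3 comparisons, from the limma fit to all 30435 kept probes (n = 3 batches a day). The probes of a gene lie on the same side of 0 except for Itgb1 at day 22 against day 10, where they are 0.08 and -0.07.

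Itga5, the fibronectin receptor chain, was the member with the largest difference between days 10 and 22. Its lowest, median and highest levels were -2.52, -1.98 and -1.66 at day 0, -2.67, -2.36 and -2.22 at day 10, and -2.11, -1.34 and -0.78 at day 22. Every array of day 22 lay above every array of day 10, while both arrays of batch 3 at day 22, at -2.11 and -2.01, lay within the range of day 0. The difference of day 22 against day 10 was 1.01 ± 0.27 (adjusted p = 0.0542, value-table adjusted p = 0.0434, and 0.0349 with the replicate block as well). Without batch 3 of day 22 it was 1.34 (adjusted p = 0.00439). That was the 1 of 9 fits leaving out a batch of the array files that passed. These 9 fits gave differences of 0.70 to 1.34 (highest adjusted p = 0.162). Batched by value table, such fits gave 0.82 to 1.16, and 2 of 9 passed (highest adjusted p = 0.165). The difference was 1.58 within slide 1, whose arrays of day 22 were both of batch 1, and 0.65 within slide 2. Neither passed the threshold.

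At day 22 against day 10, 0 of the 10 chains passed with both sets of batches, where 1.92% of all features did, and 0 passed by array file (9.63% of features). In limma 3 of the 10 had an unadjusted p under 0.05, as 26.6% of all features did, which were Itga5 (0.00561), Itgav (0.0114) and Itga6 (0.0209). By value table Itga5 passed, which was higher (0.525% of features). On Itga5 and Itgav all arrays of day 22 lay above all arrays of day 10, which held for 3.15% of features. At day 22 against day 0, 3 of 10 fell with both sets of batches, Itga2, Itga6 and Itgb1, where 18.6% of all features fell, and 0 rose, where 12.6% did. By array file 3 were lower (27.3% of features) and 1, Itgb8, was higher (17.1%).

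**Figure D3:**
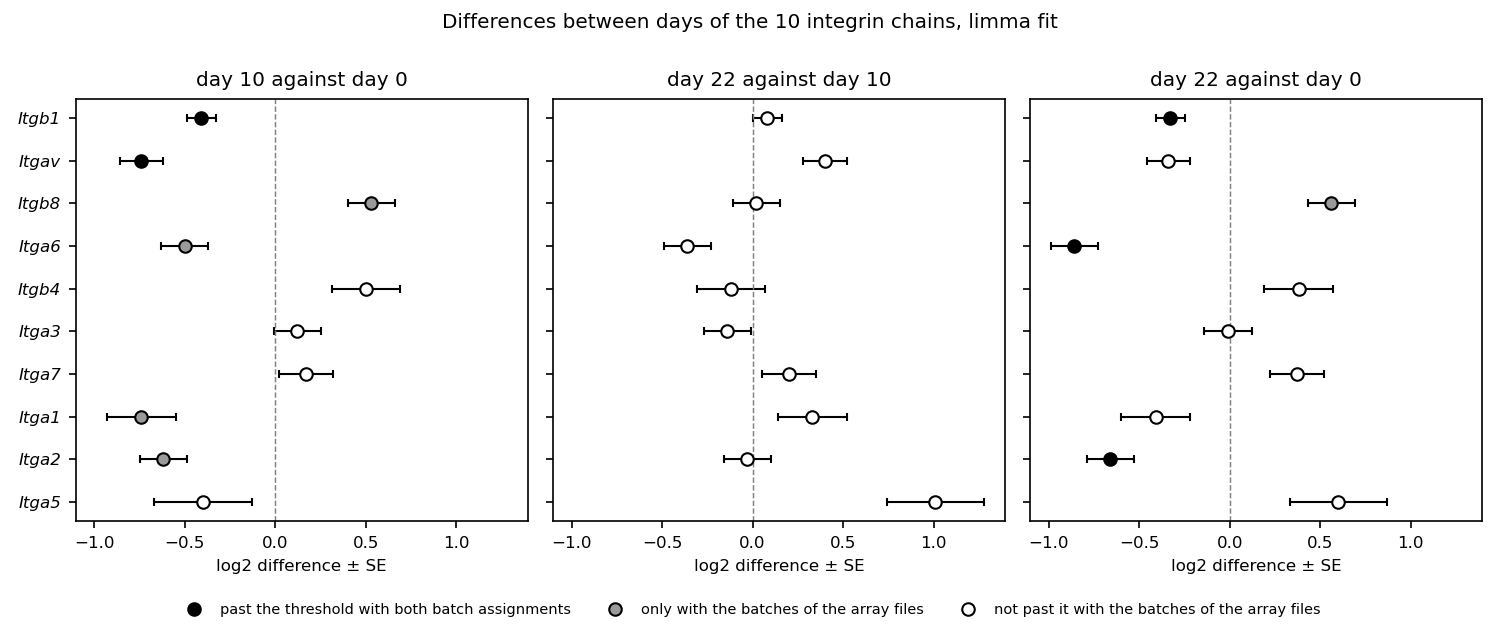
Log2 differences ± SE of the 10 chains for day 10 against day 0, day 22 against day 10 and day 22 against day 0 (limma, n = 3 batches a day). Black points passed an adjusted p of 0.05 with both sets of batches, grey points with array-file batching alone. Itgav and Itgb1 are black at day 10 against day 0, and Itga2, Itga6 and Itgb1 at day 22 against day 0.

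The change of Itgav differed between the 2 intervals when batched by array file only. The difference of day 22 against day 10 minus that of day 10 against day 0 was 1.14 ± 0.21 (adjusted p = 0.0315, value-table adjusted p = 0.0743). It was the 1 chain of 10 past the threshold, as were 3.57% of features, while 0% of features passed both ways. The other chains had adjusted p of 0.0914 or more.

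Chains were then compared directly, by subtracting the level of 1 chain from all features on each array and testing the rest. Of the chains set against Itgb1, the alpha chains are its partners, while Itgb4 and Itgb8 are other beta chains that do not pair with it. Itgb8 minus Itgav ran from -1.34 to -0.57 over the arrays of day 0, from 0.06 to 0.53 at day 10 and from -0.43 to 0.27 at day 22. All arrays of days 10 and 22 lay above all arrays of day 0. The difference of these chains rose by 1.27 ± 0.16 at day 10 against day 0 (adjusted p = 9.56e-05, value-table adjusted p = 6.49e-04). It rose by 0.89 ± 0.16 at day 22 against day 0 (adjusted p = 0.00103, value-table adjusted p = 0.00725).

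Itgav itself fell, and most features changed relative to it at day 10 (76.4%, and 73.1% with both sets of batches), and 29.7% did so at day 22 against day 0 (27.0% with both). Within slides Itgb8 minus Itgav differed by 1.35 on slide 1 (adjusted p = 0.00747) and 1.16 on slide 2 (adjusted p = 0.0298) at day 10 against day 0. At day 22 against day 0 it was 0.76 on slide 1 (adjusted p = 0.0503) and 0.96 on slide 2 (adjusted p = 0.0645), neither past the threshold. It passed in all 9 fits leaving out a batch, with either set of batches, in both comparisons with day 0. The 2 intervals also differed for this pair, by -1.65 ± 0.27 (adjusted p = 0.00182, value-table adjusted p = 0.00262), as they did for 78.2% of features set against Itgav (74.3% with both sets of batches).

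Relative to Itgb1, 3 of 9 chains rose at day 10 against day 0 with both sets of batches and 0 fell, where 38.0% of features changed relative to it in either direction. By array file alone 4 were higher and 1 was lower (52.1% of features, either direction). The counts of chains are near these shares, and the share of features higher relative to Itgb1 is not given. The 3 were Itgb8 by 0.94 ± 0.12 (adjusted p = 7.93e-04, value-table adjusted p = 0.0122), Itgb4 by 0.90 ± 0.17 (adjusted p = 0.00403, value-table adjusted p = 0.0424, and 0.0637 with the replicate block as well) and Itga7 by 0.57 ± 0.15 (adjusted p = 0.014, value-table adjusted p = 0.0297). Itga7 minus Itgb1 was 2.30 to 2.66 over the arrays of day 0, 2.99 to 3.10 at day 10 and 2.76 to 3.53 at day 22, so that neither later day overlapped day 0. The call of Itgb4 ended in 6 of 9 fits leaving out a batch of the value table (highest adjusted p = 0.138), that of Itga7 in 5 of 9 (highest 0.0939) and that of Itgb8 in 1 of 9, without batch 3 of day 10 (0.0539).

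By day 22 against day 0, 4 of 9 chains differed from Itgb1 in their change with both sets of batches, where 34.7% of features did, and by array file 5 of 9 did (46.4% of features). Itgb8 rose relative to it by 0.88 ± 0.12, Itga7 by 0.70 ± 0.15 and Itga5 by 0.93 ± 0.27, and Itga6 fell by 0.53 ± 0.14 (adjusted p = 0.0156, value-table adjusted p = 0.0312). Itga5 lost its call without batch 1 of day 0 (adjusted p = 0.0516), batch 3 of day 0 (0.0588) or batch 2 of day 22 (0.0547) of the array files, and Itga6 without batch 3 of day 0 (0.051). By value table the call of Itga6 ended in 3 of 9 such fits (highest adjusted p = 0.101) and that of Itga5 in 0 of 9. Between days 22 and 10, 0 of 9 passed (1.80% of features with both sets of batches, and 7.65% with those of the array files).

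Itgb4 and Itga6, the 2 laminin receptor chains that pair with each other, changed unequally by day 22 against day 0. Most features likewise changed relative to Itga6, which itself fell, while Itgb4 alone did not pass the threshold. Itgb4 minus Itga6 was -4.17 to -2.46 over the arrays of day 0, -2.78 to -2.23 at day 10 and -2.90 to -1.87 at day 22, and day 0 overlapped day 10 through 1 array, at -2.46, and day 22 also through a second, at -2.83. The difference rose by 1.24 ± 0.21 at day 22 against day 0 (adjusted p = 3.52e-04, value-table adjusted p = 0.00675), where 74.3% of all features changed relative to Itga6 with both sets of batches and 82.7% by array file. At day 10 against day 0 it was 1.0 ± 0.21 (adjusted p = 0.00442, value-table adjusted p = 0.0507).

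**Figure D4:**
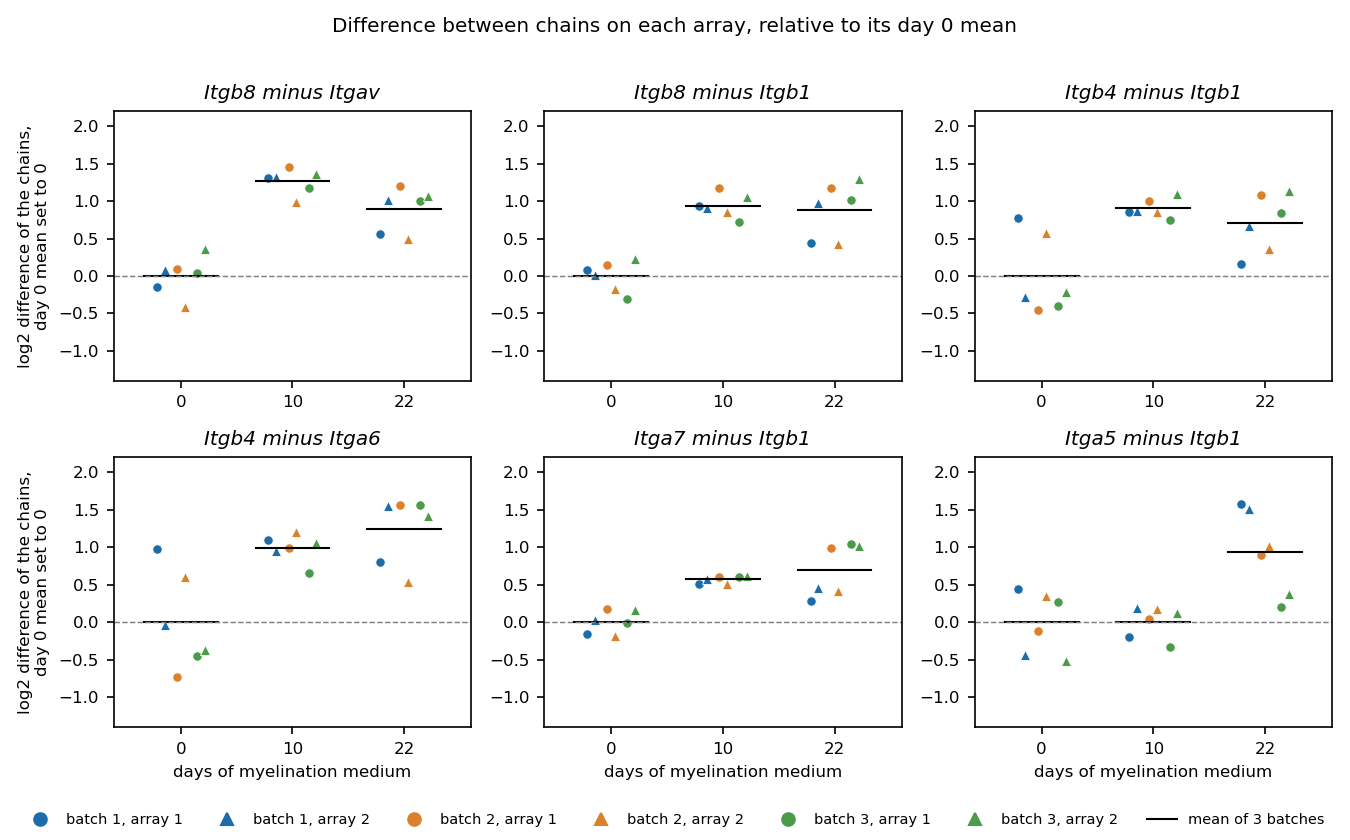
Difference between 2 chains on each array by day (log2, with the mean of day 0 set to 0), for 6 pairs. Colours are the batches of the array files, triangles the second technical arrays, and lines the means of 3 batches. Itgb8 minus Itgav was 1.27 higher at day 10 and 0.89 higher at day 22 than at day 0.

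Some chains also varied together, or in opposite ways, among arrays of the same day. Over the 18 deviations from the day means, the Pearson correlation was 0.813 for Itga7 and Itgb8, 0.70 for Itga1 and Itga5, -0.752 for Itga5 and Itga7 and -0.613 for Itga1 and Itga7. For Itga3 and Itga7 it was 0.0168. These arrays share batches, technical pairs and slides, and no test was made. At day 22 the 2 arrays of batch 1 were the highest for both Itga1 (0.21 and -0.05) and Itga5 (-0.80 and -0.78), and those of batch 3 the lowest (-0.53 and -0.55, and -2.11 and -2.01). Batches within days differed for 0 of 10 chains when batched by array file (limma's F test, 0% of features) and for 2 of 10 by value table, Itga1 and Itgb4 (8.69% of features).

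The genes most like each member over the 9 batch values, out of 14536, had Pearson correlations of 0.845 to 0.993, the highest of many and given without a test. For Itgb1 they were Gtpbp4 (0.993), Hspa13 (0.987) and Sp1 (0.982), and for Itgav Csrnp1 (0.976), Id1 (0.967) and Ap4e1 (0.964). Itga6 was followed most closely by Cdc45 (0.992), a DNA replication factor, Phgdh (0.99) and Chrm1 (0.988). For Itgb8 they were Gmfb (0.991), Xrcc5 (0.99) and Smarcal1 (0.989), for Itgb4 Vps45 (0.98), Yipf1 (0.948) and St7l (0.942), and for Itga5 Ago4 (0.981), F2r (0.974) and Orai1 (0.974). By value table the same genes correlated less, for example 0.865 for Itgav with Csrnp1 and 0.915 for Itga6 with Cdc45.

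The integrin chains outside the 10 included those of blood cells. With both sets of batches 12.6% of all features rose and 18.6% fell by day 22 against day 0. Of 8 other alpha chains tested, 4 rose and 1 fell. Itgax, a chain of dendritic cells and macrophages, was among those that rose. It was well above background on 0 of 6 arrays at day 0, 5 of 6 at day 10 and 6 of 6 at day 22, and so passed the filter only through the later days. Its mean level was -0.63 at day 22. The lowest signals well above background on the arrays of day 0 ranged from -5.9 to -5.17. No fold is given, since Itgax was not measurable at day 0. The limma test of day 22 against day 0 gave adjusted p = 1.35e-05 (value-table adjusted p = 3.29e-04), but a fall from day 0 could not have been seen. The beta partner of Itgax, Itgb2, rose by 2.02 ± 0.29 and 2.76 ± 0.29 against day 0. Itga4, which with Itgb1 binds fibronectin and Vcam1, fell by 1.07 ± 0.18 at day 10 and by 1.49 ± 0.18 at day 22 against day 0, while Itga8 rose by 0.98 ± 0.18 and 1.31 ± 0.18. Of the beta chains that pair with Itgav, Itgb5 rose by 1.06 ± 0.18 and Itgb3 fell by 1.48 ± 0.17 at day 22 against day 0. The macrophage markers that moved with Itgax and Itgb2 are given above, and their part in these values was not tested.

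Laminin genes, which code for the main ligands of Itga3, Itga6, Itga7 and Itgb4, moved in both directions. By day 22 against day 0, 5 of 10 fell and 2 rose with both sets of batches, where 18.6% of all features fell and 12.6% rose, with a median of -0.67, against -0.08 for all features. Lama2, the alpha chain of the Schwann cell basal lamina, fell by 1.52 ± 0.10, Lama4 by 1.65 ± 0.10 and Lamc1 by 1.54 ± 0.10. Lama1 rose by 2.22 ± 0.25 and Lama5 by 0.98 ± 0.14. Among collagens 6 of 10 fell and 1 rose, including Col3a1 by 1.02 ± 0.14, Col4a1 by 0.85 ± 0.15 and Col4a2 by 0.74 ± 0.12, with Col4a4 up by 0.84 ± 0.15.

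Ligands with RGD motifs and other glycoproteins split evenly, with 3 of 12 higher and 3 lower at day 22 against day 0. Over all features 12.6% were higher and 18.6% lower with both sets of batches. Spp1, or osteopontin, rose by 4.44 ± 0.37 and Thbs2 by 1.63 ± 0.17, and the basal lamina protein Nid2 fell by 1.66 ± 0.09. Of 28 genes of integrin activation and focal adhesions, 9 fell and 0 rose at day 10 against day 0. Over all features 7.72% fell and 5.75% rose there. At day 22 against day 0, 12 of the 28 fell and 5 rose, where 18.6% of all features fell and 12.6% rose. The adaptor talin-2 (Tln2) fell by 0.83 ± 0.11 and 1.33 ± 0.11, Vcl by 0.65 ± 0.08 and 0.60 ± 0.08, and Pxn by 0.64 ± 0.11 and 0.69 ± 0.11. Fermt3, the kindlin of blood cells, rose by 3.11 ± 0.41 at day 22 against day 0.

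Partners and parallel receptors of the members also differed between days. Over all features 12.6% rose and 18.6% fell by day 22 against day 0, and 5.75% rose and 7.72% fell at day 10 against day 0. Of 9 hemidesmosome, tetraspanin and other membrane partners, 2 rose by day 22 against day 0 and 0 fell. The tetraspanin Cd151, a partner of laminin-binding integrins, rose by 0.48 ± 0.11, and Emp2, of the other membrane proteins, by 0.94 ± 0.13. Of 12 genes for laminin receptors that are not integrins and for proteins of their complexes, 1 rose and 4 fell. Drp2, part of the dystroglycan complex of myelinating Schwann cells, rose by 3.27 ± 0.27, and Adgrg6 fell by 0.79 ± 0.14. Of 14 genes for storing, activating and sensing TGF-beta, 7 rose and 2 fell by day 22 against day 0, against 0 and 1 at day 10 against day 0. Ltbp2 rose by 3.50 ± 0.79 and Nrros by 2.74 ± 0.41, and Ltbp4 fell by 1.84 ± 0.12.

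**Figure D5:**
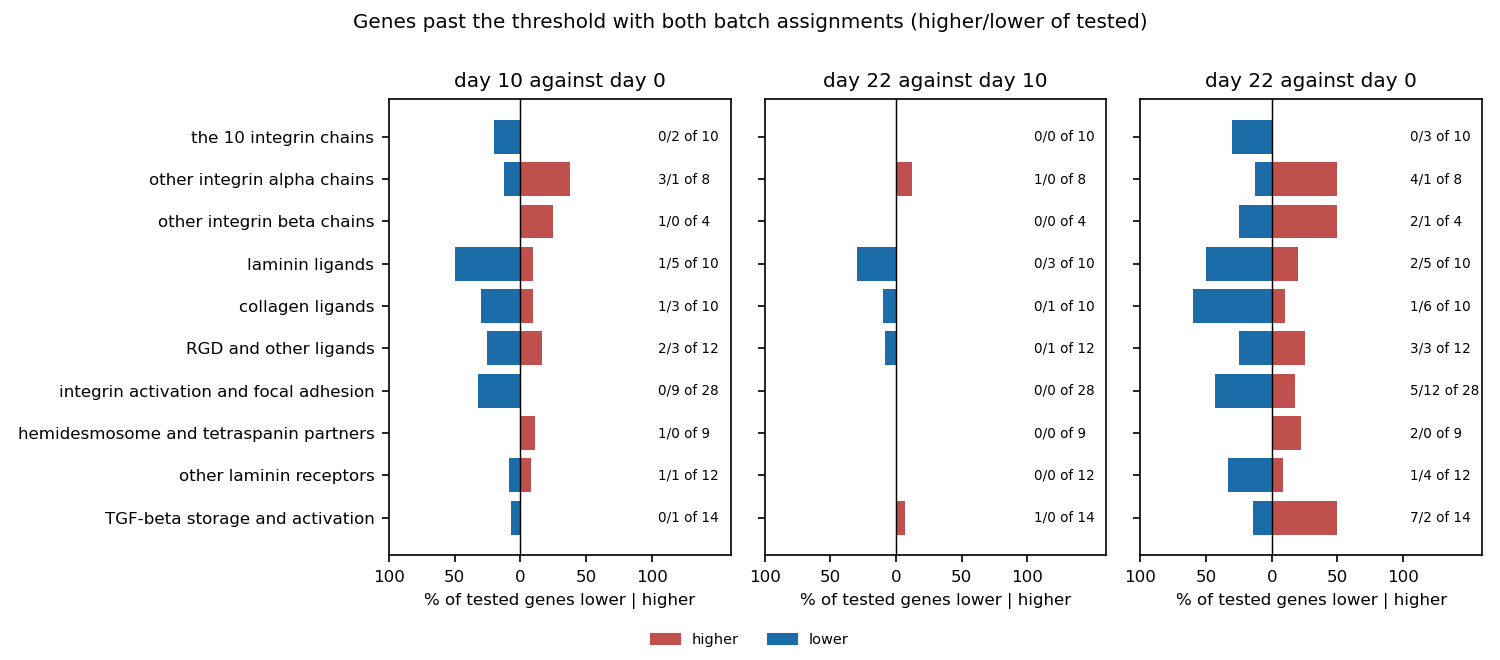
Share of tested genes higher (right of 0) and lower (left of 0) past the threshold with both sets of batches, for the 10 integrin chains and 9 related gene lists in the 3 comparisons. Numbers at the right give genes higher, genes lower and genes tested. The list of other laminin receptors also holds proteins of their complexes, such as Drp2. Of the 10 chains 0 rose and 2 fell at day 10 against day 0, and 0 rose and 3 fell at day 22 against day 0.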

How the data were processed

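RNA of 3 batches a day, 2 technical arrays each, was labelled with Cy3 and hybridised to 1-colour Agilent arrays. The deposited files hold background-corrected intensity per spot from Feature Extraction 10.7.1.1, per the file headers, which name mm9; the submitters' processing notes give 10.7.1. The authors' value table, deposited with them, holds linear intensities of the same arrays with 1 shared distribution (quantile normalized, as its values show), and its columns match other array files of the same day for 12 of 18 samples. Probes were named through RefSeq accessions (GRCm38.p6), which gave 26582 of 55681 probes a symbol.

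Processed intensities were taken to log2, and the 75th percentile of each array (584 to 747) was subtracted. Control and outlier spots (93 to 181 an array) were left out, and 0 spots were saturated. Of 55681 probes, 30435 were kept as well above background in all arrays of at least 1 day, and the brightest probe stood for a gene, which left 22858 features. Technical arrays were averaged, and limma 3.58.1 (R 4.3.3, data.table version 1.17.8) was fitted to 9 values over 3 days, a number that limits the precision. The fit was also run on simulated batch values drawn independently of each other, which cannot test the assignment of arrays to batches. Correction by normexp (offset 50) used median signals.

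Per the labels, a replicate number marks a shared batch, so the numbers pair the samples. Deviations of same-numbered samples correlated at -0.13 to 0.37 (6 of 9 pairs above 0.1), and at -0.08 to 0.46 (8 of 9) when batched by value table. The members and gene lists were chosen with earlier results of these data known. Up to 3 genes per list and direction with the largest differences among those past the threshold could be named, and the 3 most correlated genes per member; 1 gene so chosen is not reported here. Alternatives were the replicate block, duplicateCorrelation, the slide, scaling, filters, probe rules, the authors' values, single technical arrays and leaving out each batch; leaving out batches of the value table was added after seeing the data.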

Additional observations from a re-analysis of the deposited data

Results flagged for a closer look

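The differences between intervals (day 22 against day 10, minus day 10 against day 0) stood out for 4 results, each by a limma test of the difference itself when batched by array file. Itgav gave 1.14 ± 0.21 (adjusted p = 0.0315, value-table adjusted p = 0.0743). Itgb8 minus Itgav gave -1.65 ± 0.27 (0.00182 and 0.00262), the only one of the 4 past the threshold with both sets. Itgb8 minus Itgb1 gave -0.99 ± 0.21 (0.023 and 0.118) and Itgb4 minus Itgb1 gave -1.1 ± 0.30 (0.0394 and 0.169). In 0 of 30 groups of 6 arrays (10 chains on 3 days) did 1 array stand apart by Dixon's criterion, which chance alone meets in about 1 of 20 groups.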

How the results depend on the processing

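The call counts were 6, 0 and 4 of 10 chains (day 10 against day 0, day 22 against day 10, day 22 against day 0), 1 of 10 between intervals and 14 of 33 for pairs of chains. At day 10 against day 0, 2 chains passed when batched by value table, 3 with these and the replicate block, 2 with the authors' values, 1 within slide 1, 0 within slide 2, and 1 and 2 with the first and second technical arrays. At day 22 against day 10, 1 passed when batched by value table, the replicate block, both, normexp, or probes detected on all 18 arrays, 2 with duplicateCorrelation and 3 with the slide as a block. At day 22 against day 0, 7 passed with duplicateCorrelation, 7 with the slide block, 2 within slide 1, 0 within slide 2, and 1 and 2 with single technical arrays. Between intervals 0 passed when batched by value table, the replicate block, both, array medians, no filter, the authors' values, either slide or single technical arrays, and 3 with duplicateCorrelation or the slide block. Pairs gave 5 within slide 1, 4 within slide 2, and 7 and 9 with single technical arrays. Leaving out a batch gave 1 to 6, 0 to 1, 1 to 6, 0 to 2 and 7 to 15 calls. The cause of these shifts was not tested, beyond fewer arrays within slides and with single technical arrays. The replicate block with the array files' batches left 1 pass at day 22 against day 10, Itga5 (adjusted p = 0.0336).

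Signs turned in 97 of 2856 settings of 84 results, in 0 of them for a result past the threshold. Within slide 1, Itga1 at day 22 against day 0 gave 0.12, Itga7 gave -0.16 at day 22 against day 10 and -0.1 at day 22 against day 0, Itgb8 gave -0.29 at day 22 against day 10, Itga1 minus Itgb1 gave 0.53 at day 22 against day 0, Itga7 minus Itgb1 gave -0.21 at day 22 against day 10, and between intervals Itga6 gave -0.07, Itga7 -0.21 and Itga2 minus Itgb1 -0.35. Within slide 2, Itga2 (0.14), Itgb4 (0.0), Itga1 minus Itgb1 (-0.08), Itga2 minus Itgb1 (0.04) and Itgb8 minus Itgb1 (0.04) turned at day 22 against day 10 and Itga3 (0.09) at day 22 against day 0. With the second technical arrays Itga2 gave 0.07 at day 22 against day 10, and Itga1 minus Itgb1 gave 0.04 and Itgav minus Itgb1 0.01 at day 22 against day 0. With the first, Itga3 gave -0.1 and Itga5 minus Itgb1 -0.36 at day 10 against day 0, Itga3 0.07, Itgb8 -0.05 and Itga3 minus Itgb1 0.05 at day 22 against day 10, and between intervals Itga3 gave 0.17, Itga6 -0.14, Itga7 -0.04 and Itga2 minus Itgb1 -0.03. Array medians gave 0.01 for Itga3 at day 22 against day 0, -0.03 for Itgb8 at day 22 against day 10 and -0.1 for Itga7 between intervals, and the authors' values 0.02 for Itga3 at day 22 against day 0. The slide block gave -0.03 for Itga7 between intervals and -0.02 for Itga5 minus Itgb1 at day 10 against day 0. The mean of probes gave 0.07 for Itga1 minus Itgb1 and 0.03 for Itgav minus Itgb1 at day 22 against day 0 and 0.02 for Itgb8 minus Itgb1 at day 22 against day 10. Normexp gave 0.01 for Itga2 minus Itgb1 at day 10 against day 0, -0.12 for it between intervals and 0.03 for Itgav minus Itgb1 at day 22 against day 0.

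Without 1 batch, ranges crossed 0 for Itga3 (-0.03 to 0.24 at day 10 against day 0, -0.26 to 0.02 at day 22 against day 10, -0.17 to 0.07 at day 22 against day 0, -0.5 to 0.05 between intervals), Itga7 (-0.01 to 0.26 at day 10 against day 0, -0.12 to 0.22 between intervals) and Itga6 between intervals (-0.04 to 0.28). At day 22 against day 10 they did for Itga2 (-0.16 to 0.11), Itgb4 (-0.3 to 0.11), Itgb8 (-0.14 to 0.25), and minus Itgb1 for Itga2 (-0.25 to 0.05), Itga7 (-0.04 to 0.31), Itgb4 (-0.39 to 0.03) and Itgb8 (-0.23 to 0.17). Minus Itgb1 they also did for Itga2 (-0.39 to 0.01), Itga5 (-0.16 to 0.2) and Itga6 (-0.2 to 0.01) at day 10 against day 0, for Itga1 (-0.42 to 0.19) and Itgav (-0.12 to 0.11) at day 22 against day 0, and for Itga2 between intervals (-0.12 to 0.36). Scaling by array medians moved the share of higher calls among all features to 54.9% against 39.0% at day 10 against day 0, and to 27.7% against 43.6% at day 22 against day 10.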
